A study of Mus musculus with 4 samples.

Results

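Motile cilia and axoneme genes were taken by name from the lung singlet table. The rule matched every Cfap, Dnah, Drc, Rsph, Ift, Spag and Tekt symbol followed by a digit, all Dnai and Dnal symbols, and Foxj1, which gave 96 of 19647 genes. The data are droplet single-cell RNA counts from whole lung of C57BL/6J mice, an inbred laboratory strain, with no treatment, age or allele given in the labels. There was 1 library of singlets, meaning single cells, and 1 library of multiplets, meaning more than 1 cell per barcode; the labels do not say how multiplets were obtained. The small intestine libraries of the same series are used once, at the end. No animals are named, so the difference between libraries has no replicate check, and every interval printed is a 95% interval that covers counting error only.

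Motile cilia are hair-like projections that beat and move mucus along the airways, and in lung epithelium multiciliated cells carry them. Their core, the axoneme, is a ring of doublet microtubules around a central pair. Dynein arms on the doublets are the motors, and radial spokes, the nexin-dynein regulatory complex and the central apparatus coordinate them. Intraflagellar transport (IFT) trains carry parts up and down the cilium, and are also used by the solitary primary cilium of many other cell types. Foxj1 is the transcription factor that drives the motile cilia programme, and RFX factors, which bind the X-box, act on ciliary genes of both kinds.

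RefSeq promoters on GRCm38.p6, from 250 bases before to 50 after each gene's start, were on hand for 76 of the 96 genes. Promoters are shown because most members shared 1 pattern across cell classes, described after them. The X-box was searched by its consensus on both strands, as a pair of half-sites 0 to 3 bases apart. It matched 11 of the 76 member promoters (14.5%) and 1.75% of the promoters of 27025 symbols. Windows of up to 8 bases on each side of the match follow for the 6 members whose window overlapped no annotated exon, 5′ to 3′ on the gene's strand, with the match in capitals.
Cfap44, chr16:44394764-44394793, plus strand: ggagggacGTTGCTATGGCAACcgcagtaa
Ift57, chr16:49699199-49699228, plus strand: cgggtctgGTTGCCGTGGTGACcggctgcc
Spag16, chr1:69826859-69826888, plus strand: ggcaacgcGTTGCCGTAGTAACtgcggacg
Tekt2, chr4:126325697-126325725, minus strand: agggggcgGTTGCTCGGCAACcagagccg
Dnaic2, chr11:114727378-114727406, plus strand: cggccaggGTTGCTAGGCAACtggtaaac
Cfap58, chr19:47937645-47937673, plus strand: gcgtggcgGTTGCCAGGCGACcgaagacg

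In these windows the X-box lay close to the start. It ended 14 bases before the start of Cfap44, 21 before that of Dnaic2, 47 before that of Cfap58, 74 before that of Ift57 and 90 before that of Spag16. The half-site GTTGCC, which overlaps the X-box, was in 29 member promoters (38.2%) against 14.1% of all. The forkhead sequence GTAAACA was in 4 member promoters (5.26%) against 4.05%. A match is a run of letters and no evidence of binding. Of the promoters on hand, the X-box was in 9 of 51 from genes limited to ciliated cells (17.6%). It was in 2 of 16 from genes enriched there (12.5%) and in 0 of 9 from the remaining members. These groups are defined next.

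The singlet library held 6084 barcodes and 56639425 unique molecular identifiers (UMIs), and the authors' annotation named 181 barcodes (2.98%) ciliated cells. These 181 had 1976427 UMIs and a median of 10193 per barcode, and the other 5903 singlets had 54662998 UMIs. The multiplet library held 4729 barcodes and 66277622 UMIs, and the lung libraries shared 2 barcode sequences. The ciliated label matched its markers: all 10 of a list that contains none of the 96 members (Tmem212, Dynlrb2, Tppp3, Fam183b, Ccdc153, Sec14l3, Cdhr3, Ak7, Hydin and Mlf1) were at least 29.8-fold higher there than in other singlets, and each was found in 96.1% or more of the ciliated barcodes. Markers of basal cells (Trp63, Krt5, Krt15, Krt17) had 0 UMIs in the class, and club cell markers summed to 12369.8 UMIs per 1000000 (CPM) there and 13176 CPM in other singlets. The authors call club cells Clara cells.

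Most members were limited to ciliated cells, and most IFT members were not. CPM in the ciliated class was divided by CPM in all other singlets together for the 90 members with at least 20 UMIs over the singlets. By size alone, 63 members were limited (20-fold or more), 19 enriched (3-fold to under 20-fold), 6 shared (above 1/3 and under 3-fold) and 2 lower. Over all 15958 genes with as many UMIs, 4.36% were limited, 9.99% enriched, 62.6% shared and 23.1% lower. The median ratio was 205 over the members and 0.973 over all genes. The class was named by the authors from these cells, and ciliary genes may have been used to name it, so these ratios describe the class and test nothing. Just inside the 20-fold limit were Cfap298 (21.9), Ift74 (22.7), Spag1 (24.9) and Ift88 (26.6), and just outside it were Ift172 (19.2), Ift81 (15.5) and Rsph3a (15.5). The 6 members under 20 UMIs were Spag17os, Dnah2os, Ift88os, Spag6, Dnah14 and Dnah17.

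**Figure D1:**
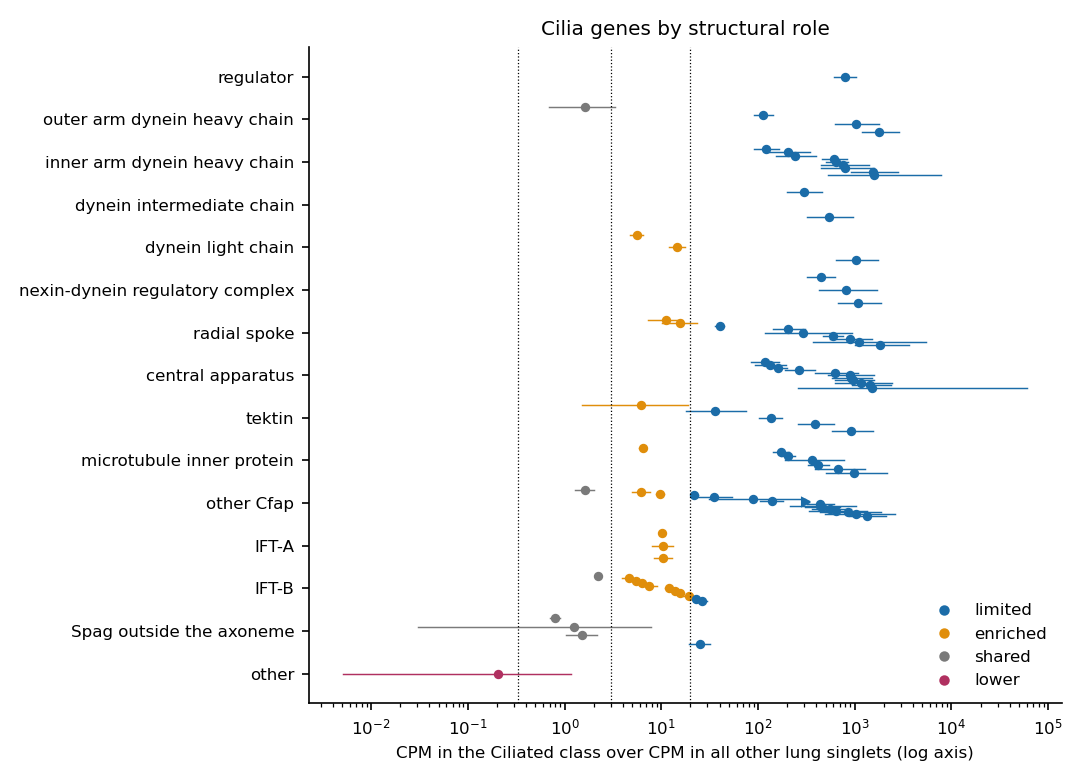
Each point is 1 member, placed by its CPM in the ciliated class over its CPM in all other lung singlets (log axis), with its 95% counting interval, in rows by structural role; dotted lines mark 20-fold, 3-fold and 1/3, a triangle is a lower bound (Cfap73), and Spag4, with 0 UMIs in the class, is left out. All inner arm and central apparatus genes sit above 100-fold, while the IFT rows lie between 2.22 and 26.6.

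Foxj1 had 1827 UMIs in the ciliated class and 64 in the other singlets, or 924 against 1.17 CPM. The ratio was 789.5 (615 to 1029.6), and 98.3% of the ciliated barcodes had at least 1 UMI. In the other classes it was low throughout, from 0 UMIs in B cells, mesothelial cells and type I pneumocytes to 2.86 CPM in natural killer (NK) cells, which rested on 2 UMIs. Fibroblast-1 cells had 25 UMIs (1.16 CPM) and type II pneumocytes 20 (1.23 CPM).

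Outer dynein arms give the beat most of its power. Of their heavy chains, Dnah5 had 1425 UMIs in ciliated cells and 22 in all others (1791-fold, 1179 to 2868), and Dnah9 had 627 and 17 (1020.1-fold). Dnah11, the third one limited here, had 435 and 106 (114-fold, 91.6 to 142), and its other UMIs are described further on. Dnah8, a heavy chain best known from the sperm tail, was shared, with 8 UMIs in ciliated cells and 136 elsewhere (1.63-fold, 0.688 to 3.30). Dnah17, also of the sperm tail, had 0 UMIs in the ciliated class, which allows up to 1.52 CPM, and 7 elsewhere.

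Inner arm dyneins shape the waveform, and all 9 of their heavy chains were limited. Dnah12 had 1494 UMIs in the class and 64 elsewhere, Dnah6 1075 and 49, Dnah3 778 and 14, and Dnah7a 383 and 14. Their ratios were 646, 607, 1537 and 757. The lowest of the 9 was Dnah7b at 121-fold (90.1 to 166), but Dnah7a, Dnah7b and Dnah7c are near-identical copies whose UMIs the counting may have split. The intermediate chains, which anchor the outer arm motors, were limited as well, Dnaic1 at 537-fold and Dnaic2 at 297-fold.

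Light chains parted. Dnali1, of the inner arms, was 1025-fold higher with 18 UMIs outside the class. Dnal1 and Dnal4 were enriched, at 14.5-fold (12.1 to 17.4) and 5.58-fold (4.77 to 6.50). Dnal4 had 202 UMIs in ciliated cells and 1001 elsewhere, in 904 barcodes. The intervals of the enriched pair lay far below that of Dnali1 (643 to 1740.0).

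The nexin-dynein regulatory complex, which limits sliding between doublets, was limited in all 3 members, Drc1 at 1072-fold, Drc7 at 805-fold and Drc3 at 443-fold. Of 9 radial spoke genes, 7 were limited. Rsph1 and Rsph4a, of the spoke head, had 1475 and 725 UMIs in the class against 69 and 11 elsewhere (591-fold and 1823-fold), and Cfap206, at the spoke base, 581 against 18 (893-fold). Rsph9, of the spoke head too, stood lower at 40.2-fold (35.9 to 44.9), with 531 UMIs in 495 other barcodes. Its 3′ end overlaps Mrps18a on the opposite strand. Fibroblast-1 cells, with 275 of those UMIs (12.7 CPM), had 122 CPM of Mrps18a. Type II pneumocytes had 9.75 CPM of Rsph9 and 34.3 of Mrps18a, and alveolar macrophages 1.76 and 69.8. The use of strand in counting was not given in the sources used here. Whether reads of Mrps18a were counted as Rsph9 was not tested. Rsph3a and Rsph3b were enriched at 15.5-fold and 11.1-fold on 37 and 36 UMIs, and are near-identical copies.

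The central apparatus sets the plane of the beat, and its 11 classed members were all limited. Spag17 had 1105 UMIs in the class and 21 elsewhere (1455-fold), Cfap54 734 and 21 (967-fold), Spag6l 663 and 20 (917-fold) and Cfap69 609 and 104 (162-fold). Spag6, the near-identical parent copy of Spag6l, had 0 UMIs in the class. The lowest ratio of the 11 was that of Cfap74, 117 (84.5 to 166).

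Tektins and microtubule inner proteins stiffen the doublets. Tekt1 had 629 UMIs in the class and 19 elsewhere, Tekt4 349 and 25, and Tekt2 317 and 65, with ratios of 916, 386 and 135. Tekt3 was limited on 21 UMIs (36.3-fold, with 16 UMIs elsewhere), and Tekt5 enriched on 4 (6.15-fold, 1.51 to 18.7). Among the inner proteins Cfap126 (203-fold), Cfap53 (416-fold) and Cfap45 (173-fold) were limited, each on more than 800 UMIs in the class. Cfap20, which also acts in primary cilia, was enriched at 6.42-fold (5.94 to 6.93), and 2331 other barcodes held it, with its level highest in type II pneumocytes (88.6 CPM against 411 in ciliated cells).

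Of 16 further Cfap genes, 13 were limited. Cfap44 (1104 UMIs in the class, 23 elsewhere) stood at 1328-fold and Cfap43 at 439-fold; both are needed for sperm tails and have been placed at the base of the inner arms. Cfap298, a factor in dynein assembly, was the least limited of the 63 at 21.9-fold (20.1 to 23.8), with 1232 UMIs in 1002 other barcodes. Cfap73 had 34 UMIs in the class and 0 elsewhere, or at least 313-fold higher when 3 UMIs are allowed over the other singlets and the 34 are taken as counted; the lower limit of its exact interval is 241-fold. Cfap36 and Cfap410 were enriched (9.70-fold and 6.20-fold) and Cfap97 shared (1.61-fold, 1.29 to 2.00).

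The IFT genes formed the main group outside the limited set. IFT-A, which runs the return trip from the tip, had 3 members and all were enriched at nearly 1 level, Ift43 at 10.3-fold (9.55 to 11.0), Ift122 at 10.4-fold (8.36 to 12.9) and Ift140 at 10.3-fold (7.94 to 13.3), with overlapping intervals. IFT-B, which carries cargo outward, had 11 members, of which 2 were limited, 8 enriched and 1 shared. Ift88 was at 26.6-fold (23.8 to 29.8) and Ift74 at 22.7-fold on 754 UMIs. Below them came Ift172 (19.2), Ift81 (15.5), Ift22 (13.7), Ift57 (12.1), Ift80 (7.49), Ift46 (6.36), Ift27 (5.48) and Ift52 (4.62). Ift88 and Ift172 did not overlap in their intervals, but Ift74 and Ift172 did (16.8 to 21.9). Ift20, which also works at the Golgi, was shared at 2.22-fold (2.05 to 2.41), with 338 CPM in ciliated cells and 213 CPM in type II pneumocytes.

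Spag genes outside the axoneme are grouped by name only. Spag1, a dynein assembly factor, was limited (24.9-fold, 134 UMIs). Spag9, a scaffold for kinase signalling and motor proteins, was shared at 0.801-fold (0.707 to 0.904) with UMIs in 4200 other barcodes, and Spag7 at 1.52-fold (1.03 to 2.16). Spag5, a mitotic spindle protein, had 1 UMI in ciliated cells and 22 elsewhere. Spag4, a nuclear envelope protein, had 0 and 72; the 0 allows 1.52 CPM, above the 1.32 CPM of the other singlets, so its place in the lower group is not resolved at this depth. Spag11b, a defensin-like gene known from the epididymis, was also in that group, at 1 UMI against 136 (0.203-fold, 0.00511 to 1.15).

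Summed over the 63 limited members, ciliated cells had 16586 CPM (1.66% of their UMIs) and other singlets 97.1 CPM. Among the other classes with at least 50 cells this sum lay between 56.4 CPM in macrophages and 124 in fibroblast-2 cells. The 19 enriched members summed to 3059 CPM in ciliated cells, and elsewhere from 166 in NK cells (137 to 199) to 438 in fibroblast-2 cells (421 to 456). Endothelial cells (417) and fibroblast-1 cells (408) stood near the upper end, where the intervals overlap. Clara cells (194), macrophages (196), B cells (198) and T cells (198) stood near the lower end. Fibroblasts and endothelial cells were also above lymphocytes in IFT-A, with 92.0 CPM in fibroblast-1, 76.7 in fibroblast-2 and 72.3 in endothelial cells. Lymphocytes had 14.3 in NK cells, 14.8 in T cells and 26.1 in B cells (15.7 to 40.8). Most of the fibroblast-1 level was Ift43, with 81.7 CPM, beside 7.92 in T cells. Mesothelial cells (10 barcodes) and type I pneumocytes (6) were too few to place.

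The enriched IFT-B genes did not share 1 next-highest class. Ift81 was next highest in fibroblast-2 cells (30.4 CPM against 285 in ciliated cells), with 3.70 in T cells and 3.43 in macrophages. Ift172 was next highest in endothelial cells (26.3 against 199.9), on 20 UMIs, followed by macrophages at 16.8. Their intervals overlapped (16.1 to 40.6 and 12.2 to 22.5). Ift27, which takes part in BBSome export from the cilium, reached 60.0 CPM in fibroblast-2 cells against 196. Ift57 (30.2 CPM) and Ift52 (30.2 CPM) were next highest in endothelial cells on 23 UMIs each (19.2 to 45.4). That interval overlapped fibroblast-2 cells for Ift57 (23.6 to 32.7) and macrophages for Ift52 (17.4 to 29.4), so these 2 places are not resolved. In every enriched member but Tekt5 the ciliated class was above the highest other class of at least 50 cells; Tekt5 rested on 4 and 2 UMIs.

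Over the classes of at least 50 cells the shared members had other orders. Spag9 was highest in endothelial cells (287 CPM) and macrophages (266), with 138 CPM in ciliated cells, 106 in type II pneumocytes and 38.5 in Clara cells. Cfap97 was nearly level between ciliated cells (46.0 CPM, 37.1 to 56.5), endothelial cells (43.4) and B cells (42.6), and lowest in Clara cells (10.3). Spag7 lay between 7.40 CPM in T cells and 16.2 in ciliated cells. Ift20 was 145 CPM in fibroblast-1, 156 in NK and 77.7 in T cells, all below ciliated cells.

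**Figure D2:**
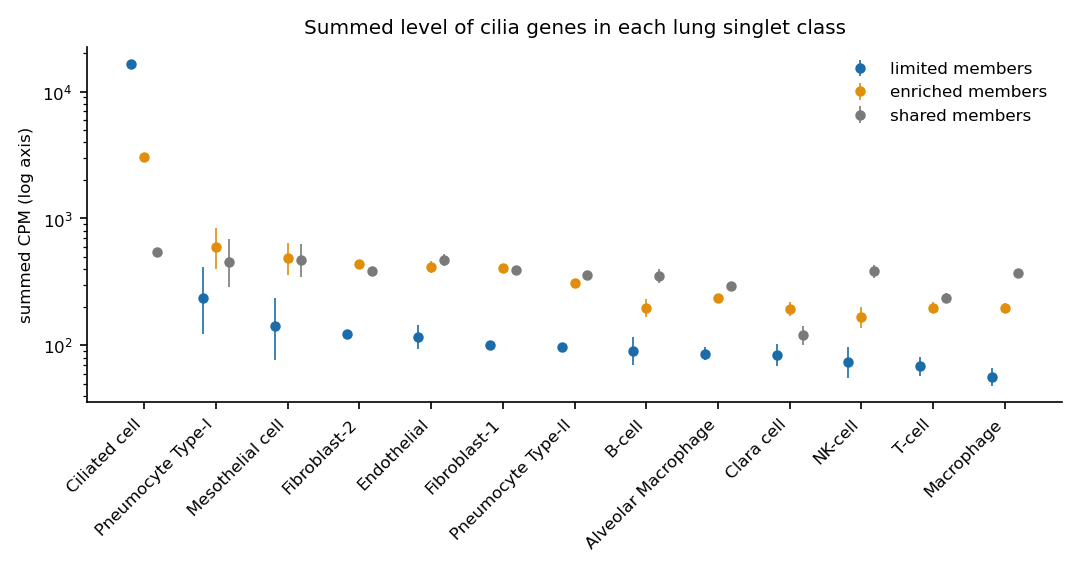
Summed CPM (log axis) of limited, enriched and shared members in each authors' class of lung singlets, with 95% counting intervals. Limited members drop from 16586 CPM in ciliated cells to 124 or less in the other classes of at least 50 cells, while enriched and shared members stay within a narrower range.

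Some limited members had most of their few outside UMIs in 1 class. Of the 106 Dnah11 UMIs outside ciliated cells, 93 were in alveolar macrophages, in 58 of 227 barcodes. That is 27.3 CPM (22.0 to 33.4), against 220.1 CPM in ciliated cells, 0.381 in macrophages and 0.232 in fibroblast-1 cells. T cells, NK cells, B cells and endothelial cells had 0 UMIs. Its outer arm partners were near 0 in alveolar macrophages, Dnah5 with 0 UMIs and Dnah9 with 1, as was Foxj1 with 2, and none of the 227 barcodes reached the limit for cilia RNA used below, which allows a share of up to 1.32%.

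Dnah11 lies at chr12:117877982-118199043 on the minus strand (GRCm38, GENCODE M21), and its 3′ end overlaps Cdca7l on the opposite strand. Cdca7l had 16.1 CPM in alveolar macrophages, where 11 of the 58 barcodes with Dnah11 also held it. It had 37.2 CPM in NK cells and 15.8 in T cells, on 26 and 30 UMIs, and those classes had 0 Dnah11 UMIs. In ciliated cells it had 1 UMI. Whether reads of Cdca7l were counted as Dnah11 was not tested.

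The multiplet library showed the same placing. These values were looked up after the singlet values were seen. Of 705 Dnah11 UMIs in multiplets, 377 were in the barcodes with cilia RNA called below. Of the other 328, 312 were in the 1380 multiplets with alveolar macrophage markers, at 14.8 CPM, and 16 in the 3222 without them, at 0.375 CPM. The ratio was 39.3 (23.8 to 69.7). Leaving Car4, also a gene of lung capillaries, out of the marker list gave 17.8. Dnah5 in the same multiplets had 3 UMIs with the markers and 41 without, and Dnah9 had 1 and 17.

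Spag11b, at chr8:19140759-19143010, was placed in alveolar macrophages too, with 134 of its 136 UMIs in 72 barcodes (39.3 CPM). It overlaps Gm45826 on its own strand. In multiplets without cilia RNA it had 25.6 CPM with the macrophage markers and 0.141 without. Spag5 had 17 of 22 UMIs there, in 11 barcodes.

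Dnah8 followed another pattern. It had 23.7 CPM in endothelial cells, 21.7 in T cells and 21.5 in NK cells, on 18, 41 and 15 UMIs. Ciliated cells had 4.05, fibroblast-1 cells 0.973 and type II pneumocytes 0.370 CPM. Several genes lie on the opposite strand along Dnah8, and their part in these values was not tested.

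Several members had a low level in fibroblast-1 cells, the class with the most UMIs. Tekt2 had 54 of its 65 outside UMIs there (2.50 CPM against 160.4 in ciliated cells) and Cfap100 52 of 66 (2.41 against 167). Dnah6 had 32 of 49 there (1.48 CPM), beside 1.47 CPM in alveolar macrophages. Its 3′ end overlaps Gm20560 on the opposite strand. Gm20560 had 39 UMIs in fibroblast-1 cells, and 1 barcode held both; its part in the Dnah6 UMIs was not tested. The 3′ end of Cfap100 overlaps Zxdc on the opposite strand, whose part in the Cfap100 UMIs was not tested. Zxdc had 388 UMIs in fibroblast-1 cells, and fibroblast-2 cells had 19.8 CPM of Zxdc and 1 Cfap100 UMI. Cfap47 had 32 of 38 UMIs in type II pneumocytes, and Ift80 31.7 CPM in T cells against 10.6 in fibroblast-1 cells.

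Cilia RNA was next counted per barcode. The 63 genes were sorted as limited on these same singlets, so the separation of ciliated from other singlets follows from that choice and only sets the scale for multiplets. Each barcode was drawn down to 2000 UMIs, a depth that all lung barcodes reach, and one with at least 5 UMIs of the 63 genes was called as holding cilia RNA. All 181 ciliated barcodes were called, with a lowest of 8, a median of 35 and a highest of 56 UMIs. Of the other 5903 singlets 3 were called (0.0508%, 0.0105 to 0.148), 1 each labelled B cell, fibroblast-1 and fibroblast-2. A ciliated barcode held UMIs of a median of 23 of the 63 genes at this depth. Before drawing, the median was 179 UMIs per ciliated barcode and 1 per other singlet. After drawing, 17.3% of the other singlets had at least 1. Free RNA can give single UMIs, but the source of these was not tested.

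**Figure D3:**
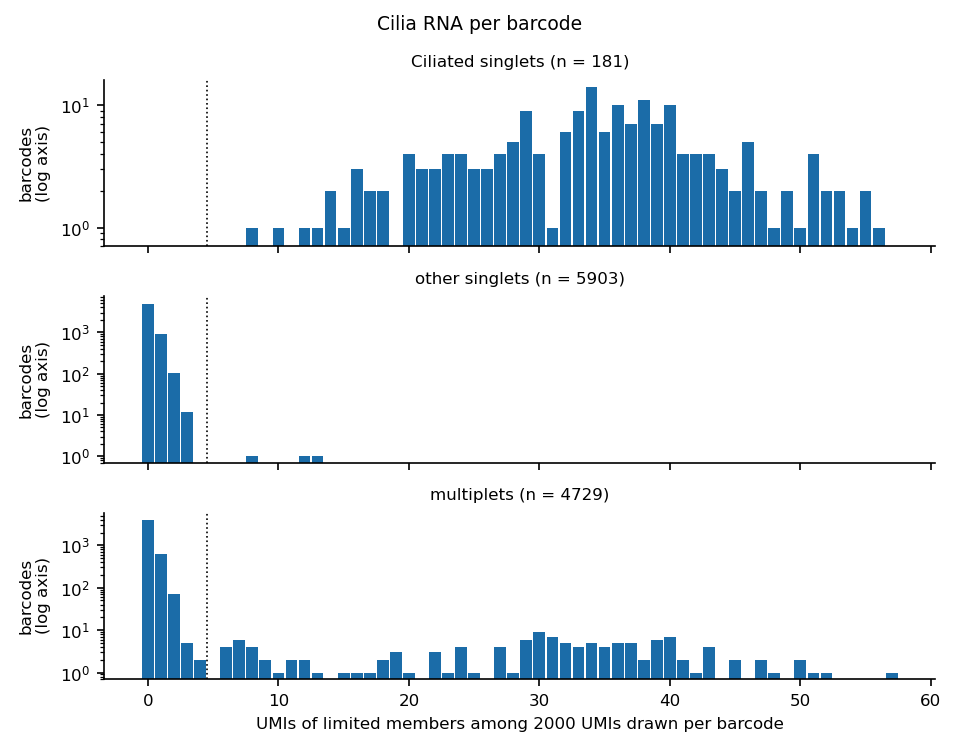
Barcodes (log axis) by the number of limited-member UMIs among 2000 drawn, for ciliated singlets, other singlets and multiplets; the dotted line marks the call at 5 UMIs. Ciliated singlets run from 8 to 56, other singlets lie at 3 or below apart from 3 barcodes, and multiplets form a low group and a group that spans the ciliated range.

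In multiplets, 127 of 4729 barcodes were called (2.69%, 2.24 to 3.19). They held 83.0% of all limited-member UMIs of the library. Their median was 31 UMIs of 2000, from 6 to 57, against 35 in ciliated singlets, and 23 of them (18.1%) lay below 16, the 5th percentile of ciliated singlets, against 7 of 181 (3.87%). Depth differed too, with a median of 14493 UMIs in called multiplets and 10193 in ciliated singlets.

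Across the libraries the limited members were lower in multiplets as a group, and 4 members outside the group were higher. CPM in multiplets was divided by CPM in singlets for the 87 members with at least 50 UMIs in either library. Beyond 1.5-fold, 4 were higher and 7 lower, against 15.9% higher and 13.8% lower of 15097 genes. All 7 lower ones were limited members, of which 60 were compared and 0 were higher; over all 584 genes limited to ciliated cells 8.05% were higher and 11.8% lower. The median ratio of the 60 was 0.769, beside 0.822 over the 524 limited genes that are no members and 0.963 over all genes. Their summed CPM was 522 in multiplets and 672 in singlets, a ratio of 0.776 (0.765 to 0.788). Enriched members gave 0.837 and shared members 0.976. A lower sum can come from fewer ciliated cells or less of their RNA per barcode, which sums over a library do not tell apart.

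**Figure D4:**
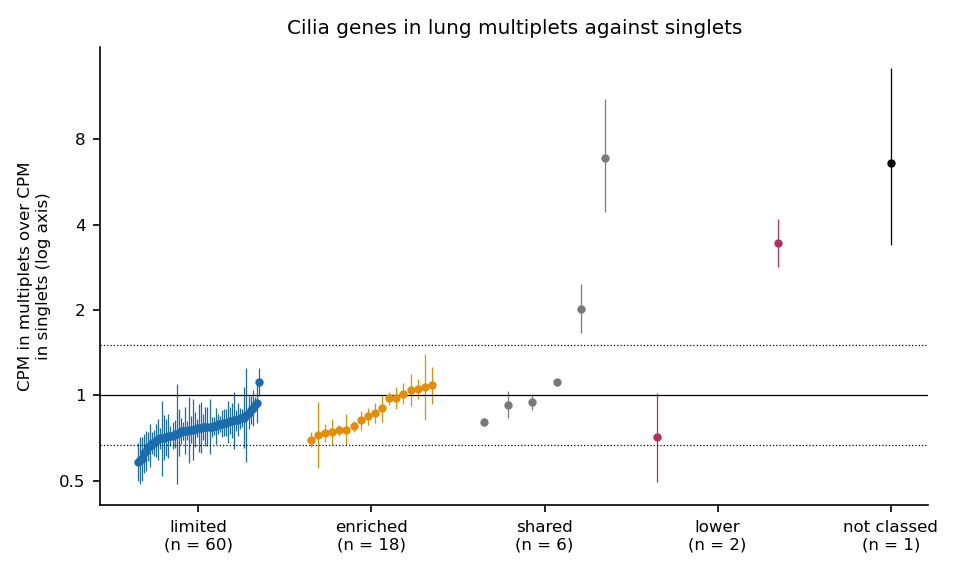
CPM in lung multiplets over CPM in lung singlets (log axis) for the 87 members compared, by group, with 95% counting intervals; dotted lines mark 1.5-fold either way. The limited members lie between 0.583 and 1.11, and the 4 members above the upper line are Dnah8, Spag11b, Spag5 and Dnah2os.

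The lowest ratios were those of Cfap100 (0.583, 0.497 to 0.682), Cfap97d2 (0.590), Dnah7b (0.598), Tekt2 (0.624) and Dnah10 (0.639). Outside the ciliated class these genes had between 7 (Cfap97d2) and 66 UMIs (Cfap100) over the other singlets. Foxj1 had 1891 UMIs over all singlets and 1757 over all multiplets (0.794, 0.744 to 0.848). Dnah11 had the highest ratio of the limited group, 1.11 (0.994 to 1.25). Markers of alveolar macrophages, the class with most of its outside UMIs, were higher in multiplets in all 7 genes of the list (median 2.98); their part in the ratio was not tested.

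The 4 higher members had their UMIs mostly in multiplets with markers of other cells. Spag5 (184 UMIs in multiplets, ratio 6.84, 4.42 to 11.1) had 88.0% of them in the 176 multiplets with cell cycle markers, which are 3.72% of all. Spag11b (550 UMIs, 3.43, 2.84 to 4.17) had 98.9% in the 1387 with alveolar macrophage markers. Dnah2os (77 UMIs, 6.58, 3.39 to 14.3), an RNA from the strand opposite Dnah2 at chr11:69448548-69453676, had 97.4% in the 655 with endothelial markers (13.9% of all). Dnah2 itself had 139 UMIs in ciliated singlets, where Dnah2os had 0. Dnah8 (340 UMIs, 2.02, 1.66 to 2.47) had 55.0% in the endothelial ones. In multiplets without cilia RNA it had 25.4 CPM with endothelial markers and 2.59 without (9.83-fold). Tekt3 and Tekt5 had 46 and 45 UMIs in multiplets, under the minimum of 50. In multiplets without cilia RNA Tekt3 had 3.54 CPM with endothelial markers and 0.0709 without, and 1.38 with type I pneumocyte markers and 0.0679 without. Tekt5 had 4.49 and 0.195, and 1.89 and 0.158. Over all multiplets, 82.6% of Tekt3 and 82.2% of Tekt5 UMIs were in the 1465 with type I markers (31.0% of all), and 63.0% and 73.3% in the endothelial ones.

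The makeup of the cilia RNA was alike in called multiplets and ciliated singlets. As a share of the summed limited-member UMIs, 0 of 60 members differed by 1.5-fold, with ratios from 0.767 (Dnah7b) to 1.17 (Tekt4). Of 466 limited genes outside the member list, 1.07% were above and 1.29% below that limit. The multiplets were called by the sum of the limited members, so the likeness is a description. Foxj1 was 5.57% of the sum in ciliated singlets and 5.80% in called multiplets, Dnah5 4.35% and 4.44%, and Dnah11 1.33% and 1.31%.

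Other singlets without the call had another makeup. Cfap298 took 23.6% of their limited-member UMIs, Ift74 17.6%, Ift88 12.1% and Rsph9 10.2%, against 2.98%, 2.30%, 1.85% and 2.35% in ciliated cells. In all, 7 members were above and 42 below the limit, against 46.2% and 36.8% of the limited genes outside the list. The ratio that sorted the members fixes most of this order, so it is a description.

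Markers of fibroblasts and of several immune cell types were rarer in called multiplets than in the other multiplets. Each barcode was drawn down to 5000 UMIs and a marker list counted at 3 or more UMIs, in the 127 called multiplets, the 4602 others and the 173 ciliated singlets deep enough. Of 17 lists, 13 were at least 1.5-fold rarer in called multiplets than in the others. Type I pneumocyte markers went the other way, in 57.5% of called multiplets and 30.2% of the others, beside 55.5% of ciliated singlets. Called multiplets were chosen for ciliated RNA, which takes up part of the fixed 5000 UMIs. Lower shares of other lists can follow from that choice, and how much of the difference does was not tested. The shares therefore do not show which cell types join ciliated cells. For 7 of the 13 the interval of the called share lay below the share in the others (fibroblast, smooth muscle, alveolar macrophage, macrophage or monocyte, neutrophil, dendritic and T cell). For the other 6, with 0 to 2 barcodes each, it covered that share. Fibroblast markers were in 5.51% of called multiplets, 8.09% of ciliated singlets and 29.6% of other multiplets. Alveolar macrophage markers were in 5.51%, 1.16% and 30.0%, and macrophage or monocyte markers in 0.787%, 2.31% and 17.5%. Endothelial markers were in 12 called multiplets (9.45%, 4.98 to 15.9), in 0 of the 173 singlets, a count that allows a share of up to 1.73%, and in 14.0% of other multiplets.

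At this depth a count of 3 UMIs says little for club and surfactant genes, whose RNA is abundant in lung. Club markers were in 100% of called multiplets and of ciliated singlets and 90.1% of other multiplets, and type II pneumocyte markers in 70.9% and 94.8%. A stricter limit, added after these values were seen, asked for more UMIs than the highest ciliated singlet. The ciliated class, in which a doublet caller marked 20 of 181 barcodes (11.0%, against 1.80% of other singlets) and none was removed, set that limit high in some lists, with up to 934 type II and 115 fibroblast UMIs of 5000. In other lists it was low, at 0 UMIs for basal and neuroendocrine, 1 for neutrophil and B cell, and 2 for endothelial markers. A few UMIs exceed such limits. By these limits 39 of 127 called multiplets (30.7%, 22.8 to 39.5) exceeded the ciliated singlets in at least 1 of 16 other lists. The other 88 called multiplets did so in none. The same count was not made for multiplets not called, so 30.7% is not a share of multiplets that hold another cell type. Endothelial markers exceeded their limit in 12 called multiplets (9.45%), against 14.0% of the multiplets not called. For club markers, 19 of 127 called multiplets (15.0%, 9.25 to 22.4) exceeded 276 UMIs of 5000, against 88 of 4602 not called (1.91%). Of the 19, 17 stood far above the limit, at 1324 to 3170 club UMIs, and held 6 to 19 limited-member UMIs. The median of the 19 was 8 limited-member UMIs of 2000, against 33 in the remaining called multiplets, and 49810 against 12725 UMIs of depth. Clara singlets reached at most 3 such UMIs in 61 barcodes, none of them called, which allows a share of up to 4.92%.

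**Figure D5:**
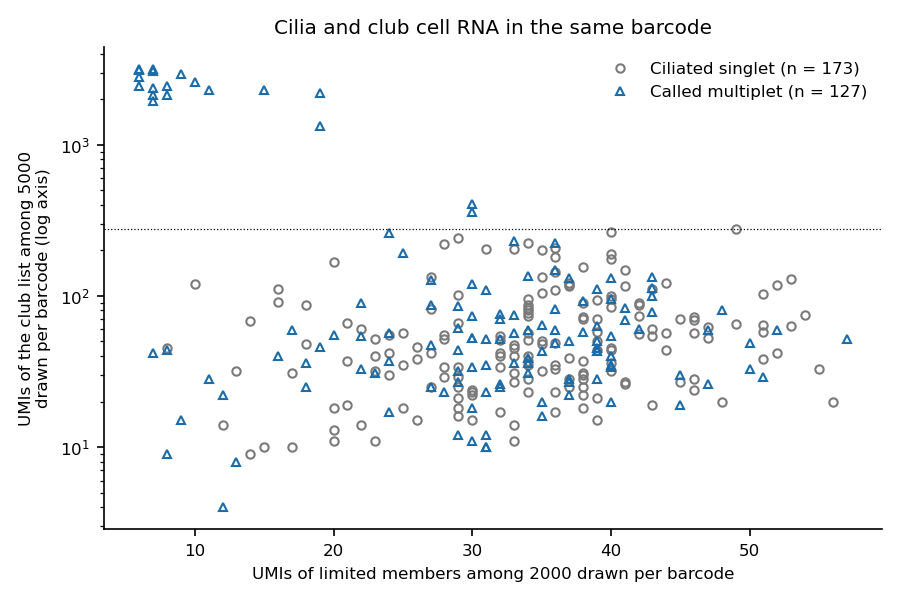
Each point is 1 barcode, placed by its limited-member UMIs among 2000 drawn and its club marker UMIs among 5000 drawn (log axis); circles are ciliated singlets, triangles called multiplets, and the dotted line is the highest ciliated singlet at 276. Above the line, 17 of 19 called multiplets form a group of their own at the upper left, and most called multiplets below it overlap the ciliated singlets.

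Genes of the same pathways under other names followed the members' split. Of 23 further axoneme genes 22 were limited, among them Ccdc39 (252-fold) and Ccdc40 (761-fold), the rulers of the axonemal repeat, and Gas8 was enriched (18.5-fold). Of 12 genes for dynein assembly and docking 10 were limited, for example Armc4, a docking factor, with 288 UMIs in the class and 2 elsewhere, and Dnaaf2 and Dnaaf5 were enriched. Of 18 IFT genes with other names 5 were limited and 12 enriched. Ttc21a was limited at 1181-fold and its paralog Ttc21b shared at 1.48-fold (1.04 to 2.06). The BBSome, which moves membrane proteins in cilia, had 0 of 13 limited and 11 enriched. Hedgehog genes, which signal through the primary cilium, had 0 of 10 limited, 2 enriched and 3 lower.

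Regulators of multiciliation were mixed, with 4 of 12 limited, 3 enriched, 4 shared and 1 lower. Deup1, which builds centrioles in bulk, had 91 UMIs in the class and 1 elsewhere, Trp73 116 and 3, Ccdc78 389 and 23, and Myb 423 and 135. The early regulators Mcidas and Gmnc had 0 UMIs in ciliated cells, which allows up to 1.52 CPM. Rfx2 and Rfx3, factors that bind the X-box, were enriched at 9.45-fold (7.80 to 11.4) and 12.2-fold (10.4 to 14.3). Besides the ciliated markers, the limited genes with the most UMIs in the class that are no members were Cyp2f2 (20.8-fold), a club cell gene, Cd24a, Elof1 and Hspa4l.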

How the data were processed

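Per the labels' protocols, tissue was dissociated mechanically and enzymatically and the kit was Chromium Single Cell 3′ v3. The submitters' processing notes name Cell Ranger 4.0.0 and mm10. The deposited tables hold whole-number UMI counts for each gene symbol in each barcode, not normalized, read near transcript 3′ ends. The authors deposited a cell class for singlets, by steps that were not given in the sources used here. Members and lists were chosen with earlier results of these data known. Counts were summed per class or library and divided by the total (CPM). Ratios carry exact conditional binomial intervals, sums exact Poisson and shares exact Clopper-Pearson intervals. With 1 library per group no test was run. Limits were 20 UMIs for classing, 50 for library ratios, 20-fold, 3-fold and 1.5-fold; a count of 0 allows 3 UMIs. Doublets were kept: Scrublet in scanpy 1.11.5 marked 20 of 181 ciliated (11.0%) and 106 of 5903 other singlets (1.80%). The class rule, ratios and drawing were tested on simulated data. Genes named are Foxj1, up to 4 members per role by ciliated UMIs, all enriched or lower members, up to 8 shared ones, the 5 highest and 5 lowest library ratios, and genes of the pathway lists; others, such as those with UMIs in 1 other class, were chosen after their values were seen. Coordinates come from GENCODE M21 (GRCm38), with 94 of 96 symbols matched, and promoters from RefSeq (GRCm38.p6). Software was Python 3.11.15, NumPy 2.4.6, SciPy 1.17.1 and edgeR 4.0.16.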

Additional observations from a re-analysis of the deposited data

How the results depend on the processing

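No paired analysis was possible because each group had 1 library and no test was run. Over 52 recomputed values, 42 stayed within their limits and 10 moved. The number of limited members ran from 56 (50-fold limit, or against the highest other class) to 73 (10-fold limit). The summed multiplet ratio of limited members was 0.804 with TMM factors, 0.812 with median of ratios factors and 0.727 when singlets had to be as deep as the shallowest multiplet. Beside 7 lower members, median of ratios factors gave 4, the deep singlets 15 and a 2-fold limit 0. In that comparison 4770 singlets remained, 173 of them ciliated (3.63%). Median log2 ratios over all genes were -0.05 (CPM), -0.003 (TMM) and 0.01 (median of ratios). Calling cilia RNA by the ciliated marker list gave 3.24% of multiplets. The causes were not tested. Depth limits members under 20 UMIs and those with a few UMIs in a class. A count of 0 barcodes allows a share of up to 1.32% in 227 alveolar macrophages and up to 4.92% in 61 Clara cells.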

Other observations

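The small intestine libraries of the series give the level of these genes in a tissue whose epithelium has no motile cilia. Of the 63 genes limited to ciliated cells in lung, 33 were in the intestinal singlet table and 31 in the multiplet table, where they summed to 37.7 CPM (35.9 to 39.4) and 33.7 CPM (32.1 to 35.4). Over the same 33 and 31 genes, lung singlets outside the ciliated class had 63.8 and 60.8 CPM. The 18 enriched members in the intestinal tables, mostly IFT genes, had 270.4 and 237 CPM in intestine, beside 334 CPM for the same genes in the other lung singlets. The shared members had 266 and 270.2 CPM, beside 366. Each tissue and cell state had 1 library.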
